A study of Mus musculus with 2 samples.

Results

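The 8 genes described here belong to the interleukin-1 (IL-1) family of cytokines and receptors and were taken by name, as members of the family, with earlier results of these data known: the cytokines *Il1a*, *Il1b*, *Il18* and *Il33*, the antagonist *Il1rn*, the signalling receptor subunits *Il1r1* and *Il1rap*, and the decoy receptor *Il1r2*. All 8 were among the 32285 genes of the files. They were followed across neutrophils, macrophages, dendritic cells, epithelial cells and stromal cells of the adult mouse vomeronasal organ (VNO), the paired chemosensory organ at the base of the nasal septum that detects pheromones. Whole VNOs of wild-type C57BL/6J males at P60, 60 days after birth, were dissociated and captured in droplets as 2 libraries from 5 mice in total. The sources used here do not say how the mice were divided between the libraries. All cells came from 1 group: no mouse was treated, mutant or female, so every comparison was between kinds of cells within the same libraries. Counts are of unique molecular identifiers (UMIs), tags that let copies of one captured mRNA be counted once.

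IL-1 cytokines are alarm signals of damaged or infected tissue. IL-1α and IL-1β, encoded by *Il1a* and *Il1b*, bind IL-1R1, which recruits the accessory chain encoded by *Il1rap* and signals through MyD88 to NF-κB. IL-1β and IL-18 are made as inactive precursors that caspase-1 cleaves within inflammasomes. IL-33 is stored in the nucleus, classically of epithelial, stromal and endothelial cells at barriers, and is released on injury. The system is restrained by the IL-1 receptor antagonist, encoded by *Il1rn*, which occupies IL-1R1 without signalling, and by the decoy receptor encoded by *Il1r2*, which binds IL-1 but lacks a signalling domain.

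The deposited counts held 12814 and 11270 barcodes in libraries 1 and 2, and 5694 and 4898 cells with medians of 6668 and 6650.5 UMIs remained after the filters. The libraries shared 33 deposited barcodes, of which 3 were kept in both. Cells were clustered without the 8 genes and their pathway lists, and clusters were named from marker genes, so that names end in "-like". Of 31 clusters, 5 stayed unnamed with 1492 cells, and 1 of these drew 223 of its 226 cells from library 1. The groups compared were 754 neutrophil-like, 1645 macrophage-like, 407 dendritic-like, 2826 epithelial-like (basal, non-sensory, gland and *Fezf2*+ epithelium), 555 stromal-like (all in fibroblast-like clusters) and 780 endothelial-like cells. Every gene of each group's own marker list was detected, except *Bpifb9b* of the gland list and *Cyp1a2* of the sustentacular list in epithelial-like cells. Neutrophil-like cells were shallow, with a median of 1592.5 UMIs, against 4430 in macrophage-like, 6979 in dendritic-like, 9530 in epithelial-like and 7456 in stromal-like cells. Levels are given as counts-per-million (CPM), the UMIs of a gene scaled to all UMIs of the cells of a group in a library. The CPM of different genes were not compared with each other. The dendritic-like cluster also had the monocyte markers *Ly6c2*, *Ccr2* and *Plac8* raised. Its monocyte list summed to 913 and 980 CPM, against 70.2 and 90.7 CPM in macrophage-like cells. A separate monocyte-like cluster of 119 cells was not among the groups compared.

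The starts of 4 genes are shown because the levels below set them apart: *Il1b* and *Il1a* peaked in myeloid cells, *Il1r2* in neutrophil-like and dendritic-like cells, and *Il33* outside the leukocytes. Each run is the 250 bases before a start annotated by RefSeq on GRCm38.p6, read 5′ to 3′ on the strand of the gene, with motif matches in capitals. *Il1b* is on the minus strand (chr2:129371140-129371389), *Il1a* on the minus strand (chr2:129309973-129310222) and *Il1r2* on the plus strand (chr1:40085843-40086092). For *Il33*, on the plus strand, both annotated starts are shown (chr19:29924863-29925112 and chr19:29945540-29945789).
Il1b: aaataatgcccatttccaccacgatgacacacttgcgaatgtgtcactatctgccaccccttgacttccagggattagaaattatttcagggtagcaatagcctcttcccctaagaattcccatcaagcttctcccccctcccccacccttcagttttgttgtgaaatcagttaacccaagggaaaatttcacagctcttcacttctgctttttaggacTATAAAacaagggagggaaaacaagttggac
Il1a: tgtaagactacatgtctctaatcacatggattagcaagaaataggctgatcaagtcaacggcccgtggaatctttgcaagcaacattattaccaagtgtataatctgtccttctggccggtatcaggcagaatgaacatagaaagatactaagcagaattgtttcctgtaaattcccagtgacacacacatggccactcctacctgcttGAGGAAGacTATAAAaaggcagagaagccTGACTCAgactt
Il1r2: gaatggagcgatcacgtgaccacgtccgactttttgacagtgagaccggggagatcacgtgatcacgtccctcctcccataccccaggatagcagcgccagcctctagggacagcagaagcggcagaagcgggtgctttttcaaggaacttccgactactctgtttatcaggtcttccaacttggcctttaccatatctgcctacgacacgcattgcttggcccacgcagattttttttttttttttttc
Il33, first start: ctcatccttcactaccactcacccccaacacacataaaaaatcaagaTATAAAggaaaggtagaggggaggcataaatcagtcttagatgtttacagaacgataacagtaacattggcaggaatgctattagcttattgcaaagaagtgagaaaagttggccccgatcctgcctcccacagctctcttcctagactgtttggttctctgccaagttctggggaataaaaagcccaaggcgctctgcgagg
Il33, second start: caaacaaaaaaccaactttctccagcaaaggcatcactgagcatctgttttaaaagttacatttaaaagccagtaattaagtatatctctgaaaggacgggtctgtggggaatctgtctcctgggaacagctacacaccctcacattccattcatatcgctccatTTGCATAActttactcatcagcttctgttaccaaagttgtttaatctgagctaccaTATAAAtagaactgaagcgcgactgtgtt

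On either strand, 5 motifs were searched: the AP-1 motif TGANTCA, the NF-κB motif, the C/EBP motif TTGCNNAA, the PU.1 motif GAGGAAG and the TATA motif TATAAA. Of 32851 mouse promoters of this length they were held by 6.75%, 0.356%, 9.56%, 10.6% and 12.4%. The *Il1b* window held TATAAA 31 to 26 bases before the start, and the *Il1a* window held TATAAA at 32 to 27, PU.1 at 41 to 35 and AP-1 at 12 to 6 bases before the start. Both *Il33* windows held TATAAA, at 203 to 198 and at 29 to 24 bases, and the second also held C/EBP at 85 to 78 bases. The *Il1r2* window held none of the 5. That window lies inside the gene as placed below (chr1:40074079-40125231), and the bases before the first base of the gene were not searched. Among the other members, *Il1r1* held C/EBP and *Il1rn* AP-1 before the first annotated start only, with no match before their later starts. *Il18* held TATA on the opposite strand, and *Il1rap* held none. A match is a description of letters and does not mark a bound site, and no match says only that these letters were not in the window.

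On GRCm38, *Il1b* and *Il1a* are neighbours on chromosome 2, at chr2:129364570-129371139 and chr2:129299610-129309972, each with 7 exons in its longest transcript. *Il1rn* lies on the same chromosome at chr2:24336853-24351494. *Il1r2* (chr1:40074079-40125231) and *Il1r1* (chr1:40225080-40317257) are neighbours on chromosome 1, and *Il1rap* is at chr16:26581704-26730117, *Il18* at chr9:50554827-50581840 and *Il33* at chr19:29925114-29960718. Genes annotated on the opposite strand overlap *Il1a*, *Il1b*, *Il18*, *Il1rap* and *Il1r2*. The overlap at *Il1b* is with *Il1bos*, which covers the *Il1b* start.

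*Il1b* was counted in all 3 myeloid groups compared, and among the groups compared its level was highest in neutrophil-like cells. It stood at 18454 CPM in library 1 and 17153 CPM in library 2 of neutrophil-like cells. The dendritic-like values were 3858 and 3100 CPM, and the macrophage-like values 3154 and 2855 CPM. The neutrophil-like libraries lay above all others, whereas dendritic-like and macrophage-like libraries overlapped. Outside the myeloid groups *Il1b* read 86.9 and 101 CPM in endothelial-like cells, 36.2 and 27.4 CPM in epithelial-like cells, and 75.9 and 8.73 CPM in stromal-like cells. Mature vomeronasal sensory neuron (VSN)-like cells, which should not express the gene, read 28.2 and 6.75 CPM, so that the epithelial-like libraries and 1 of the stromal-like libraries were near this background.

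**Figure D1:**
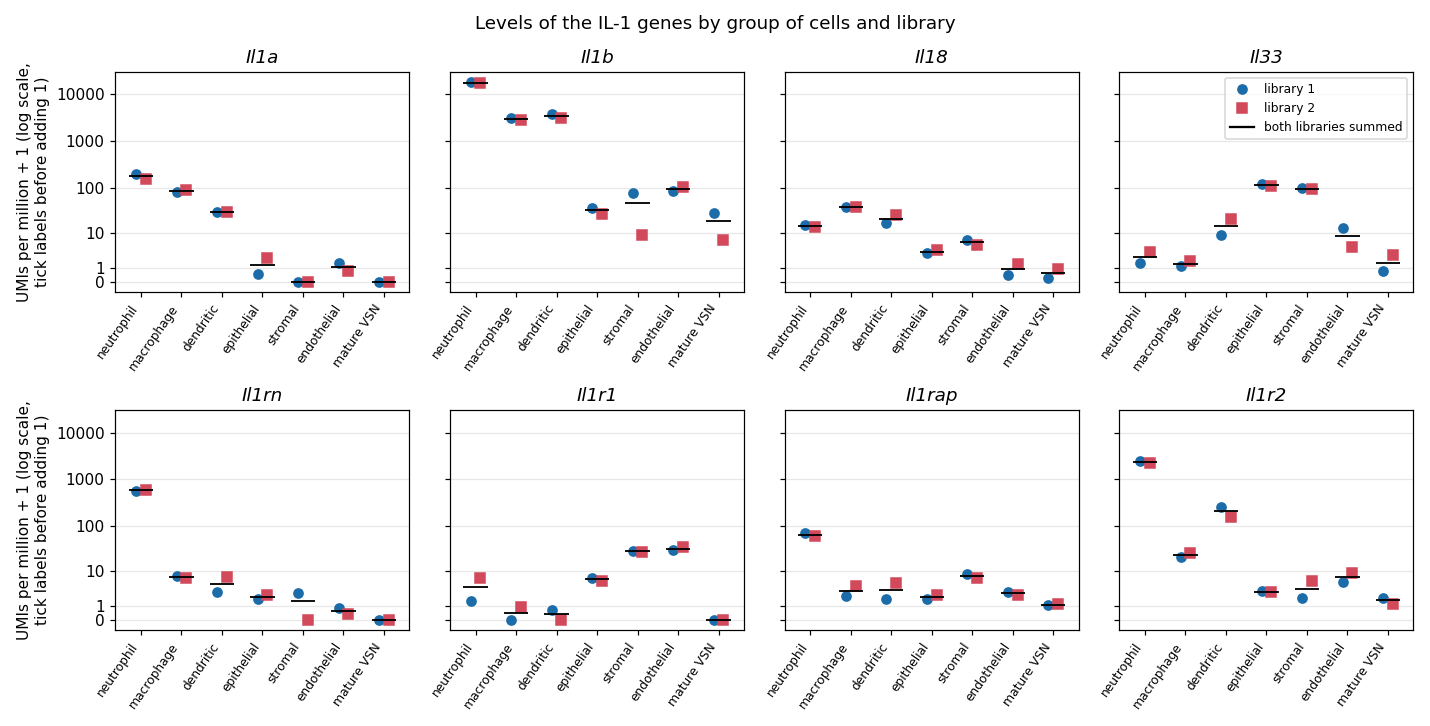
Level of each IL-1 gene in 7 groups of cells, as CPM plus 1 on a log axis whose tick labels are the values before adding 1; points are the 2 libraries and lines both libraries summed. *Il1b*, *Il1rn* and *Il1r2* stand highest in neutrophil-like cells, *Il33* in epithelial-like and stromal-like cells, and *Il1r1* in endothelial-like and stromal-like cells.

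Differences were tested with edgeR's quasi-likelihood test on the UMIs summed per library and group, with Benjamini-Hochberg adjustment over all 16792 genes tested. Each value below is the log2 fold change of that fit ± SE. The SE was calculated as the size of the log2 fold change divided by the square root of the test's F statistic. All p-values measure the spread between 2 libraries, which may be technical. *Il1b* was 5.93-fold higher in CPM in neutrophil-like than in macrophage-like cells (2.35 ± 0.36, adjusted p = 1.46e-05) and 5.08-fold higher than in dendritic-like cells (2.08 ± 0.36, adjusted p = 7.34e-05). Dendritic-like and macrophage-like cells could not be told apart (0.26 ± 0.34, adjusted p = 0.706). With the library as a block this difference of 0.25 passed the threshold (adjusted p = 0.0198). *Il1b* was 554-fold higher in neutrophil-like and 93.4-fold higher in macrophage-like than in epithelial-like cells (8.93 ± 0.49 and 6.58 ± 0.44).

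The share of cells with *Il1b* separated the myeloid groups differently from the level. To compare groups of unequal depth, each cell was thinned to 1000 UMIs and shallower cells were left out. *Il1b* was then found in 99.1% of 673 neutrophil-like cells, 73.0% of 404 dendritic-like cells and 56.1% of 1330 macrophage-like cells, with exact 95% binomial intervals of 98.1 to 99.7%, 68.4 to 77.3% and 53.4 to 58.8%. Without thinning the shares were 99.1%, 86.2% and 56.5%. Of mature VSN-like cells, whose median was 13527.5 UMIs, 1.014% held an *Il1b* UMI after thinning and 4.22% before, so a share near this size was read as background. The background of other groups may be higher, for levels as for shares. Gland markers summed to 705 and 444 CPM in mature VSN-like cells, against 4736 and 3955 CPM in neutrophil-like and 4094 and 3849 CPM in stromal-like cells. All intervals cover counting error only. In total 37.2% of the 59316 *Il1b* UMIs of the kept cells lay in neutrophil-like, 36.0% in macrophage-like and 18.1% in dendritic-like cells, although neutrophil-like cells were fewer and shallower.

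Doublets, droplets called as holding more than 1 cell, held part of the *Il1b* signal outside the myeloid groups. All 8 macrophage markers were also counted there, summing to 6559 and 6145 CPM in stromal-like and 3320 and 3212 CPM in epithelial-like cells. The sums were 95814 and 92038 CPM in macrophage-like and 2814 and 5491 CPM in dendritic-like cells. A sum does not show which of the 8 genes gave it, and the source of these UMIs was not tested. Doublets held 161 of the 210 *Il1b* UMIs of stromal-like cells and 398 of the 1100 of epithelial-like cells. Without doublets the stromal-like level was 13.1 and 8.96 CPM and the epithelial-like level 29.98 and 9.71 CPM. The difference between epithelial-like and stromal-like cells then went from -0.05 ± 0.40 (adjusted p = 0.938) to 1.29 (adjusted p = 0.00954). The endothelial-like level stood above the stromal-like one in the full set (1.08 ± 0.41, adjusted p = 0.044), a call that was lost under 5 other settings.

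*Il1a*, the other agonist cytokine, was also highest in neutrophil-like cells, but macrophage-like cells stood above dendritic-like cells. Neutrophil-like cells read 195 and 154 CPM, macrophage-like cells 79.9 and 90.7 CPM, and dendritic-like cells 29.4 CPM in both libraries. The 3 groups did not overlap. *Il1a* was 2.06-fold higher in neutrophil-like than in macrophage-like cells (0.82 ± 0.23, adjusted p = 0.00867) and 2.90-fold higher in macrophage-like than in dendritic-like cells (-1.48 ± 0.26 for dendritic-like minus macrophage-like, adjusted p = 0.000194). After thinning it was found in 10.8% of neutrophil-like, 4.51% of macrophage-like and 2.23% of dendritic-like cells. Because macrophage-like cells were more numerous and deeper, they held 61.4% of the 987 *Il1a* UMIs.

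*Il1a* was rarely counted outside the myeloid groups. No UMI was found in 555 stromal-like cells or in 592 mature VSN-like cells, counts that permit shares of cells with a UMI of at most 0.541% and 0.507% and put no limit on cells that express the gene. Against a floor of 3 UMIs over the stromal-like group, the neutrophil-like level was at least 262-fold higher, the macrophage-like level at least 128-fold and the dendritic-like level at least 44.0-fold. Epithelial-like cells held 42 UMIs (0.432 and 2.17 CPM), of which 32 lay in a basal-like cluster of 262 cells whose leading genes were the keratins *Krt4* and *Krt6a*. These 32 UMIs came from 3 cells, 1.15% of that cluster.

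*Il18*, unlike *Il1a* and *Il1b*, had its highest level in macrophage-like rather than neutrophil-like cells. Macrophage-like cells read 37.6 and 38.9 CPM, dendritic-like cells 16.8 and 25.8 CPM and neutrophil-like cells 15.5 and 13.5 CPM. Both macrophage-like libraries lay above both libraries of every other compartment compared. *Il18* was 2.63-fold lower in neutrophil-like than in macrophage-like cells (-1.61 ± 0.32, adjusted p = 0.000343) and 1.83-fold lower in dendritic-like cells (-0.82 ± 0.23, adjusted p = 0.0132). The latter call was lost with DESeq2, with thinned cells and without doublets. Neutrophil-like and dendritic-like cells, next to each other in the order, did not pass the test (-0.79 ± 0.37, adjusted p = 0.129).

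Stromal-like cells read 6.68 and 5.14 CPM of *Il18*, epithelial-like cells 3.08 and 3.76 CPM and endothelial-like cells 0.380 and 1.36 CPM. The first 2 did not differ beyond their spread (-0.39 ± 0.32, adjusted p = 0.364), and the endothelial-like level was lower than the stromal-like one (-2.70 ± 0.56, adjusted p = 0.000448), a call lost with thinned cells. Within the epithelium *Fezf2*+ cells had the highest level, at 8.85 and 7.03 CPM, and gland-like cells the lowest, at 1.76 and 1.93 CPM. *Il18* was sparse everywhere: after thinning it was found in 3.61% of macrophage-like cells (interval 2.67 to 4.76%), 0.252% of epithelial-like cells and 0 of 592 mature VSN-like cells.

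*Il33* was distributed the other way round, in epithelium and fibroblasts rather than leukocytes. Epithelial-like cells read 123 and 108 CPM and stromal-like cells 97.5 and 92.9 CPM. Macrophage-like cells read 1.11 and 1.71 CPM, neutrophil-like cells 1.55 and 3.38 CPM, and mature VSN-like cells 0.646 and 2.64 CPM. The leukocyte values other than the dendritic-like ones were thus of the size of the VSN-like background. *Il33* was 82.7-fold higher in epithelial-like than in macrophage-like cells (-6.32 ± 0.36 for macrophage-like minus epithelial-like, adjusted p = 2.78e-13) and 67.9-fold higher in stromal-like than in macrophage-like cells (-5.60 ± 0.39, adjusted p = 1.22e-11). Epithelial-like cells held 80.6% of the 4933 *Il33* UMIs and stromal-like cells 8.70%.

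The difference in *Il33* between epithelial-like and stromal-like cells was small. It was 0.71 ± 0.20 in the fit (adjusted p = 0.00625) and 1.22-fold in CPM, and it was not called with DESeq2 (0.59), with scaling by total counts (0.28) or with thinned cells (0.48). The share of cells with *Il33* was 11.2% in both after thinning, and 38.3% and 35.3% before. Endothelial-like cells, at 13.3 and 4.41 CPM, were 11.1-fold below stromal-like cells (-3.44 ± 0.29, adjusted p = 9.62e-10).

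Dendritic-like cells read 8.99 and 20.8 CPM of *Il33*, 10.2-fold above macrophage-like cells (3.39 ± 0.55, adjusted p = 6.29e-05). Doublets held 40 of the 44 UMIs. Without them the level was 0.657 and 2.48 CPM and the difference 0.14 (adjusted p = 1). Dendritic-like cells also carried 215 and 245 CPM of the 5 basal-cell markers, against 9 to 31 CPM in macrophage-like cells.

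Within the epithelium *Il33* marked some basal and non-sensory cells more than others. The larger basal-like cluster of 1045 cells read 223 and 197 CPM and the smaller one of 262 cells, led by *Krt4* and *Krt6a*, 40.9 and 22.2 CPM. Non-sensory cells read 147 and 145 CPM, *Fezf2*+ cells 73.6 and 43.4 CPM and gland-like cells 63.2 and 50.4 CPM. Basal-like cells as a whole (173 and 153 CPM) stood 1.78-fold above the other epithelial-like cells (0.59 ± 0.14, adjusted p = 0.00824, over 14907 genes), which was not called with thinned cells (0.52, adjusted p = 0.0725). The 2 fibroblast-like clusters differed in the same way: 140 and 136 CPM in the cluster of 380 cells led by *Mfap5* and *Dpt*, and 26.2 and 15.8 CPM in the cluster of 175 cells led by *Cytl1* and *Cemip*. These cluster differences were not tested.

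**Figure D2:**
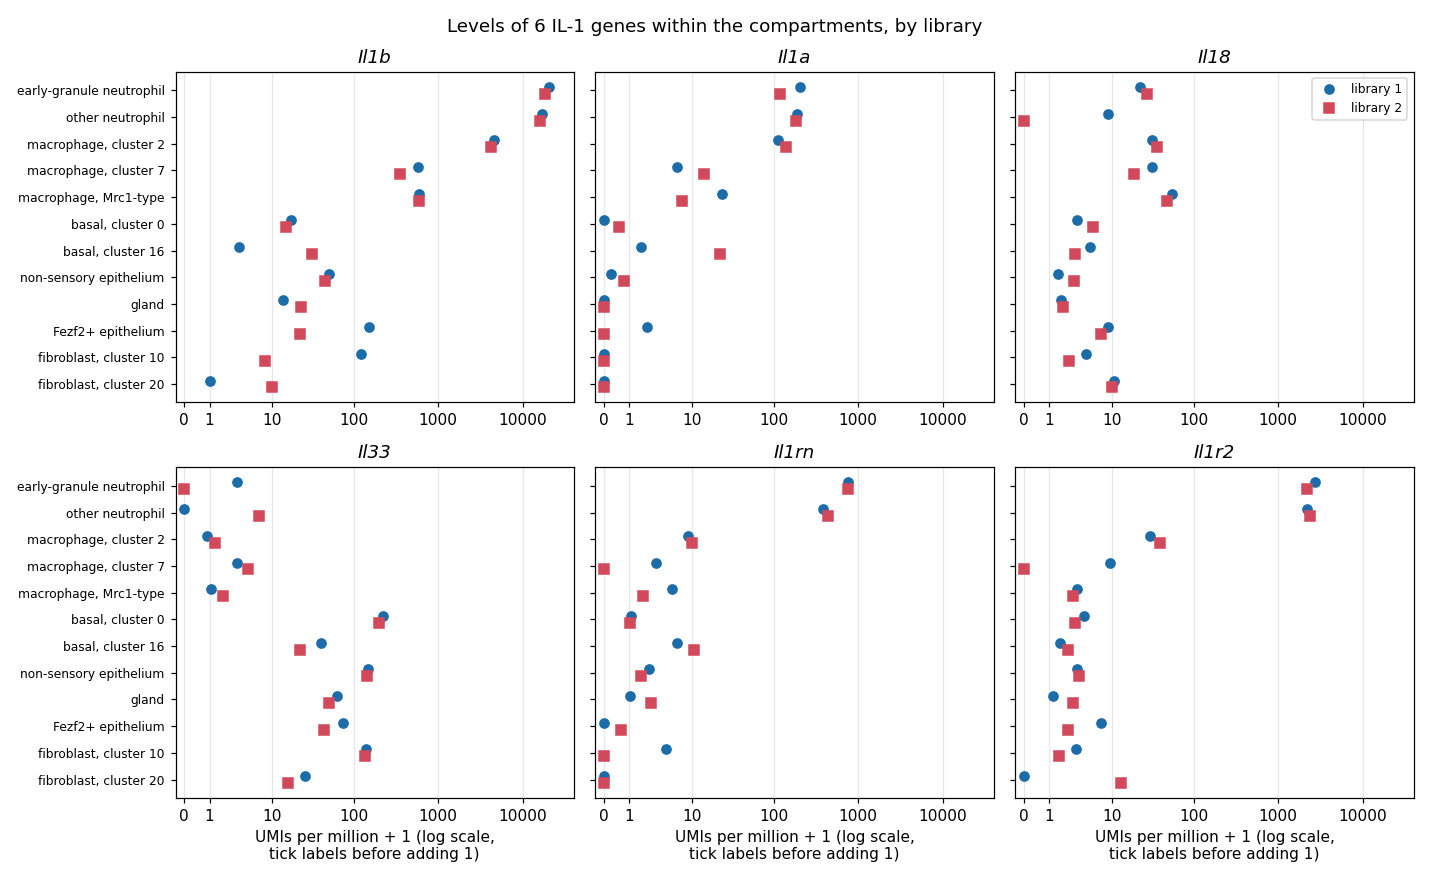
Level of 6 IL-1 genes within the compartments, as CPM plus 1 on a log axis whose tick labels are the values before adding 1; the points are the 2 libraries. *Il1b* lies between 358 and 597 CPM in cluster 7 and in Mrc1-type macrophage-like cells against 4193 to 4517 CPM in macrophage-like cluster 2, and *Il33* is lower in 1 of the 2 basal-like and 1 of the 2 fibroblast-like clusters.

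*Il1rn*, the receptor antagonist, was concentrated in neutrophil-like cells. It read 562 and 603 CPM there, against 7.52 and 6.82 CPM in macrophage-like, 3.00 and 7.16 CPM in dendritic-like and 1.78 and 2.42 CPM in epithelial-like cells. The neutrophil-like level was 81.1-fold above the macrophage-like level (6.12 ± 0.25, adjusted p = 2.94e-15), 119-fold above the dendritic-like level (6.62 ± 0.30, adjusted p = 3.20e-14) and 280-fold above the epithelial-like level (7.92 ± 0.24, adjusted p = 4.96e-18). Neutrophil-like cells held 79.7% of the 903 *Il1rn* UMIs. After thinning, 37.1% of neutrophil-like cells held *Il1rn* (interval 33.5 to 40.9%), against 0.301% of macrophage-like and 0 of 592 mature VSN-like cells.

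Below the neutrophil-like cells the order of *Il1rn* was less certain. Macrophage-like and dendritic-like cells did not differ beyond their spread (-0.50 ± 0.47 for dendritic-like minus macrophage-like, adjusted p = 0.556). Macrophage-like cells stood above epithelial-like cells (1.80 ± 0.33, adjusted p = 7.96e-05) and stromal-like cells (2.63 ± 0.53, adjusted p = 0.000232), but with thinned cells neither was called (0.60, adjusted p = 0.644, and 4.03, adjusted p = 0.129). The dendritic-like excess over epithelial-like cells (1.30 ± 0.50, adjusted p = 0.0422) was lost with the IL-1 lists kept in the clustering, at a resolution of 0.5, with thinned cells and with scaling by total counts. Stromal-like cells held 7 UMIs, 5 of them in doublets, and only without doublets did epithelial-like cells pass the test against them as higher (2.38, adjusted p = 0.00994).

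*Il1r1*, the signalling receptor, was found mainly outside the myeloid cells that carried its ligands. Endothelial-like cells read 29.98 and 34.6 CPM, stromal-like cells 29.1 and 27.7 CPM and epithelial-like cells 6.86 and 5.81 CPM. Endothelial-like and stromal-like cells did not differ beyond their spread (0.19 ± 0.25, adjusted p = 0.611), and epithelial-like cells stood 4.47-fold below stromal-like cells (-1.73 ± 0.25, adjusted p = 3.07e-06). Macrophage-like cells held 3 UMIs in 1645 cells, dendritic-like cells 1 in 407 and neutrophil-like cells 5 in 754. The level in macrophage-like cells was 0.0148 times the stromal-like level (exact counting interval 0.00301 to 0.0442) and that in neutrophil-like cells was 7.06-fold lower (-2.57 ± 0.56, adjusted p = 0.000513).

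The highest *Il1r1* level among the 18 named classes was in T cell-like cells, a cluster of 274 cells led by *Il17a*, *Trdc* and *Cd163l1*, genes known from γδ T cells that make IL-17. They read 67.5 and 94.9 CPM, and 9.43% of 265 thinned cells held the gene (interval 6.20 to 13.6%), against 3.27% of endothelial-like and 2.93% of stromal-like cells. This class was outside the tests and its excess was not tested. No *Il1r1* UMI was found in 592 mature VSN-like cells. Within the epithelium basal-like cells read 8.52 CPM and other epithelial-like cells 5.27 CPM over both libraries (0.46 ± 0.23, adjusted p = 0.171).

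*Il1rap*, the accessory chain, was highest in other cells than *Il1r1*. Neutrophil-like cells read 69.7 and 60.8 CPM, stromal-like cells 8.65 and 6.68 CPM, dendritic-like cells 1.80 and 5.01 CPM and macrophage-like cells 2.23 and 4.26 CPM. Endothelial-like cells read 3.04 and 2.38 CPM and epithelial-like cells 1.78 and 2.36 CPM, against 1.08 and 1.17 CPM in mature VSN-like cells. The neutrophil-like level was 8.40-fold above the stromal-like level (3.30 ± 0.34, adjusted p = 2.21e-08) and 20.2-fold above the macrophage-like level (4.11 ± 0.36, adjusted p = 2.90e-09). Stromal-like cells in turn stood above epithelial-like cells (-1.48 ± 0.37 for epithelial-like minus stromal-like, adjusted p = 0.00208) and endothelial-like cells (-1.51 ± 0.46, adjusted p = 0.013). Neither call held with thinned cells (-1.39, adjusted p = 0.434, and -0.43, adjusted p = 0.922).

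Olfactory ensheathing-like cells, glia of the sensory nerves, were the other class with *Il1rap*: 36.9 and 44.2 CPM in 74 cells, of which 23.0% held the gene. They were outside the tests. In all, only 286 *Il1rap* UMIs were counted, and after thinning 6.24% of neutrophil-like cells held one against 0.549% of stromal-like and 0.169% of mature VSN-like cells. Of the 105 stromal-like cells with *Il1r1*, 3 also held *Il1rap*, and of the 115 endothelial-like cells with *Il1r1* 3 did so. At this depth a cell without a UMI cannot be read as lacking the gene.

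*Il1r2*, the decoy receptor, was highest in neutrophil-like cells and next highest in dendritic-like cells. It read 2446 and 2288 CPM in neutrophil-like, 259 and 158 CPM in dendritic-like and 20.9 and 25.9 CPM in macrophage-like cells. These 3 groups did not overlap. The neutrophil-like level was 11.1-fold above the dendritic-like level (3.22 ± 0.21, adjusted p = 1.48e-11) and 102-fold above the macrophage-like level (6.45 ± 0.25, adjusted p = 1.91e-15). The dendritic-like level was 9.13-fold above the macrophage-like level (3.23 ± 0.23, adjusted p = 2.63e-10), although *Il1b* did not differ between them beyond its spread. Doublets held 9 of the 653 dendritic-like *Il1r2* UMIs, and without them the dendritic-like level was 282 and 178 CPM.

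After thinning *Il1r2* was found in 83.5% of neutrophil-like cells (interval 80.5 to 86.2%), 17.8% of dendritic-like cells (14.2 to 21.9%), 1.43% of macrophage-like cells (0.862 to 2.22%) and 0 of 592 mature VSN-like cells. Neutrophil-like cells held 72.5% and dendritic-like cells 16.1% of the 4047 *Il1r2* UMIs. Epithelial-like cells (3.08 and 2.93 CPM) and stromal-like cells (1.97 and 5.65 CPM) did not differ beyond their spread (0.18 ± 0.46, adjusted p = 0.787). The difference between endothelial-like and stromal-like cells was 1.03 ± 0.48 (adjusted p = 0.112), and it passed with the library as a block (1.06, adjusted p = 0.0253).

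**Figure D3:**
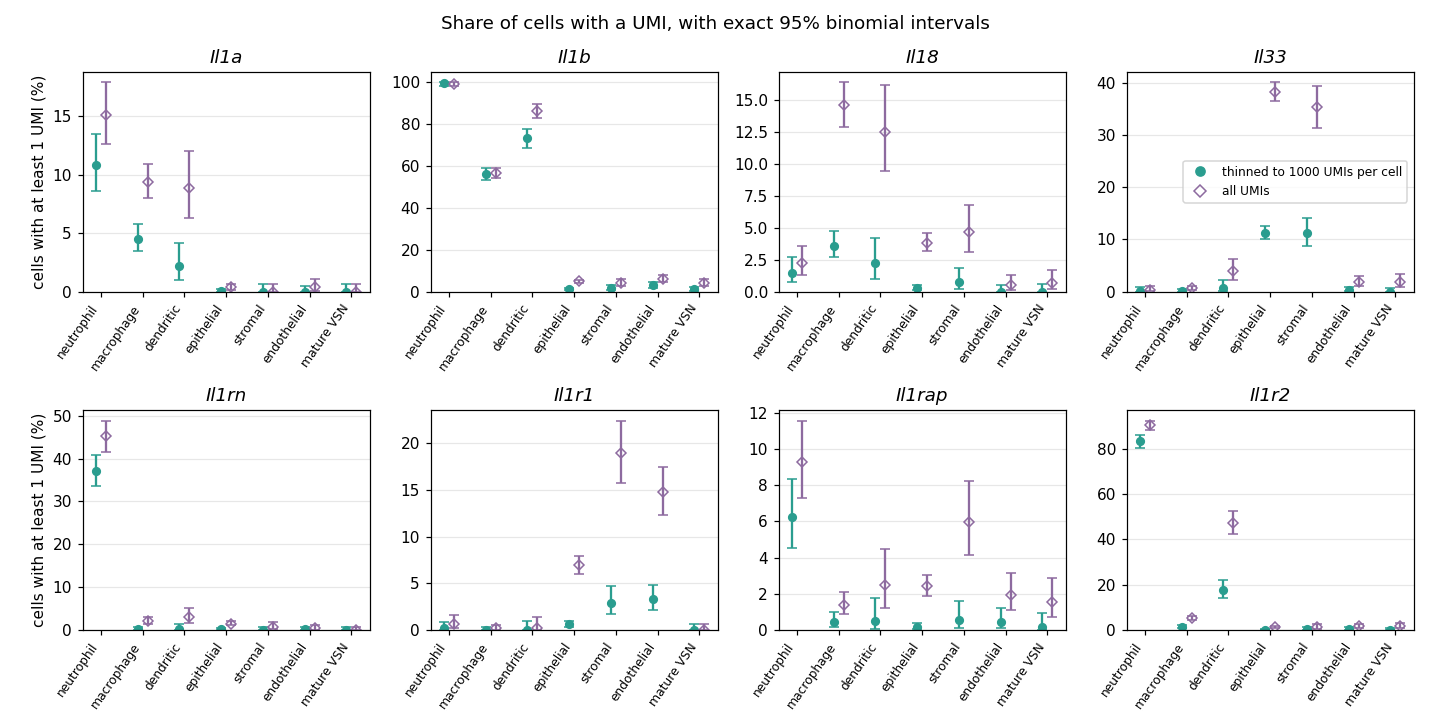
Share of cells of each group with at least 1 UMI of each IL-1 gene, with exact 95% binomial intervals; filled circles are cells thinned to 1000 UMIs and open diamonds all UMIs, and the vertical scale differs between genes. For *Il1b* the 3 myeloid groups keep their order by both measures, with 99.1% of neutrophil-like, 73.0% of dendritic-like and 56.1% of macrophage-like cells after thinning.

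The thinned cells also show which members were found in the same cells. In dendritic-like cells, *Il1r2* was found in 21.7% of cells with *Il1b* (25.0% and 17.6% by library) and in 7.34% of cells without it. In macrophage-like cells, *Il1a* was found in 6.97% of cells with *Il1b* and 1.37% of cells without it. In neutrophil-like cells, *Il1r2* was equally frequent with and without *Il1rn*, at 83.6% and 83.5%, and *Il1rn* was found in 37.5% of cells with *Il1b*. Cells of a library are not replicates, and these shares were not tested.

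Between neutrophil-like and macrophage-like cells 30.5% of all genes tested were called at an adjusted p under 0.05, and of the 8 members 6 were higher (*Il1a*, *Il1b*, *Il1rn*, *Il1r1*, *Il1rap* and *Il1r2*) and 1 lower (*Il18*). The *Il1r1* call rested on 5 and 3 UMIs, a ratio of 9.57 with an exact counting interval of 1.86 to 61.7. The median log2 fold change was 2.66 over the members and -0.23 over all genes. Against dendritic-like cells 26.7% of genes were called, with 5 members higher in neutrophil-like cells and 1 lower (*Il33*, on 3 UMIs against 44). The *Il33* difference of -2.82 ± 0.82 became 0.41 (adjusted p = 0.907) without doublets.

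Neutrophil-like cells exceeded epithelial-like cells in 6 members and fell below them in *Il33* (44.8% of genes called), and exceeded stromal-like cells in 6 and fell below them in *Il33* and *Il1r1* (43.7% called). Macrophage-like cells exceeded both epithelial-like cells (50.5% called) and stromal-like cells (46.3% called) in 5 members, *Il1a*, *Il1b*, *Il18*, *Il1rn* and *Il1r2*, and fell below both in *Il33* and *Il1r1*. Dendritic-like cells gave the same counts, 5 higher and 2 lower, against epithelial-like cells (41.2% called) and stromal-like cells (43.1% called). Against stromal-like cells the *Il1rn* call was lost under 5 settings, with a mitochondrial limit of 10% (0.52, adjusted p = 0.442), the IL-1 lists kept in the clustering, a resolution of 0.5, thinned cells or total counts, and the *Il18* call with thinned cells (adjusted p = 0.0829). These comparisons share groups and are not independent of each other.

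Between dendritic-like and macrophage-like cells 18.8% of genes were called, with 2 members higher (*Il33* and *Il1r2*) and 2 lower (*Il1a* and *Il18*), of which *Il33* and *Il18* were not called without doublets. Epithelial-like against stromal-like cells gave 42.7% of genes called, 2 members higher (*Il1a* and *Il33*) and 2 lower (*Il1r1* and *Il1rap*). The *Il1a* call there set 42 UMIs against 0 and was at least 1.84-fold. Endothelial-like against stromal-like cells gave 33.7% called, 1 member higher (*Il1b*) and 3 lower (*Il18*, *Il33* and *Il1rap*). *Il1a* there, 6 UMIs against 0, was called only with the library as a block (adjusted p = 0.0326) and with no filter on low counts. No member with a call reversed under another scaling, but the balance of all calls moved. The share of calls that were higher went from 40.4% to 55.7% with DESeq2 for neutrophil-like against macrophage-like cells, from 42.6% to 53.8% against dendritic-like cells and from 38.9% to 50.9% against epithelial-like cells. With total counts it fell for epithelial-like (49.7% to 27.3%), dendritic-like (46.5% to 27.9%) and macrophage-like (47.0% to 29.0%) against stromal-like cells, where the median of all genes moved from 0.06 to -0.35, from -0.08 to -0.58 and from -0.01 to -0.47. In the comparison of neutrophil-like with epithelial-like cells the median moved from -0.75 to -0.16 with DESeq2.

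**Figure D4:**
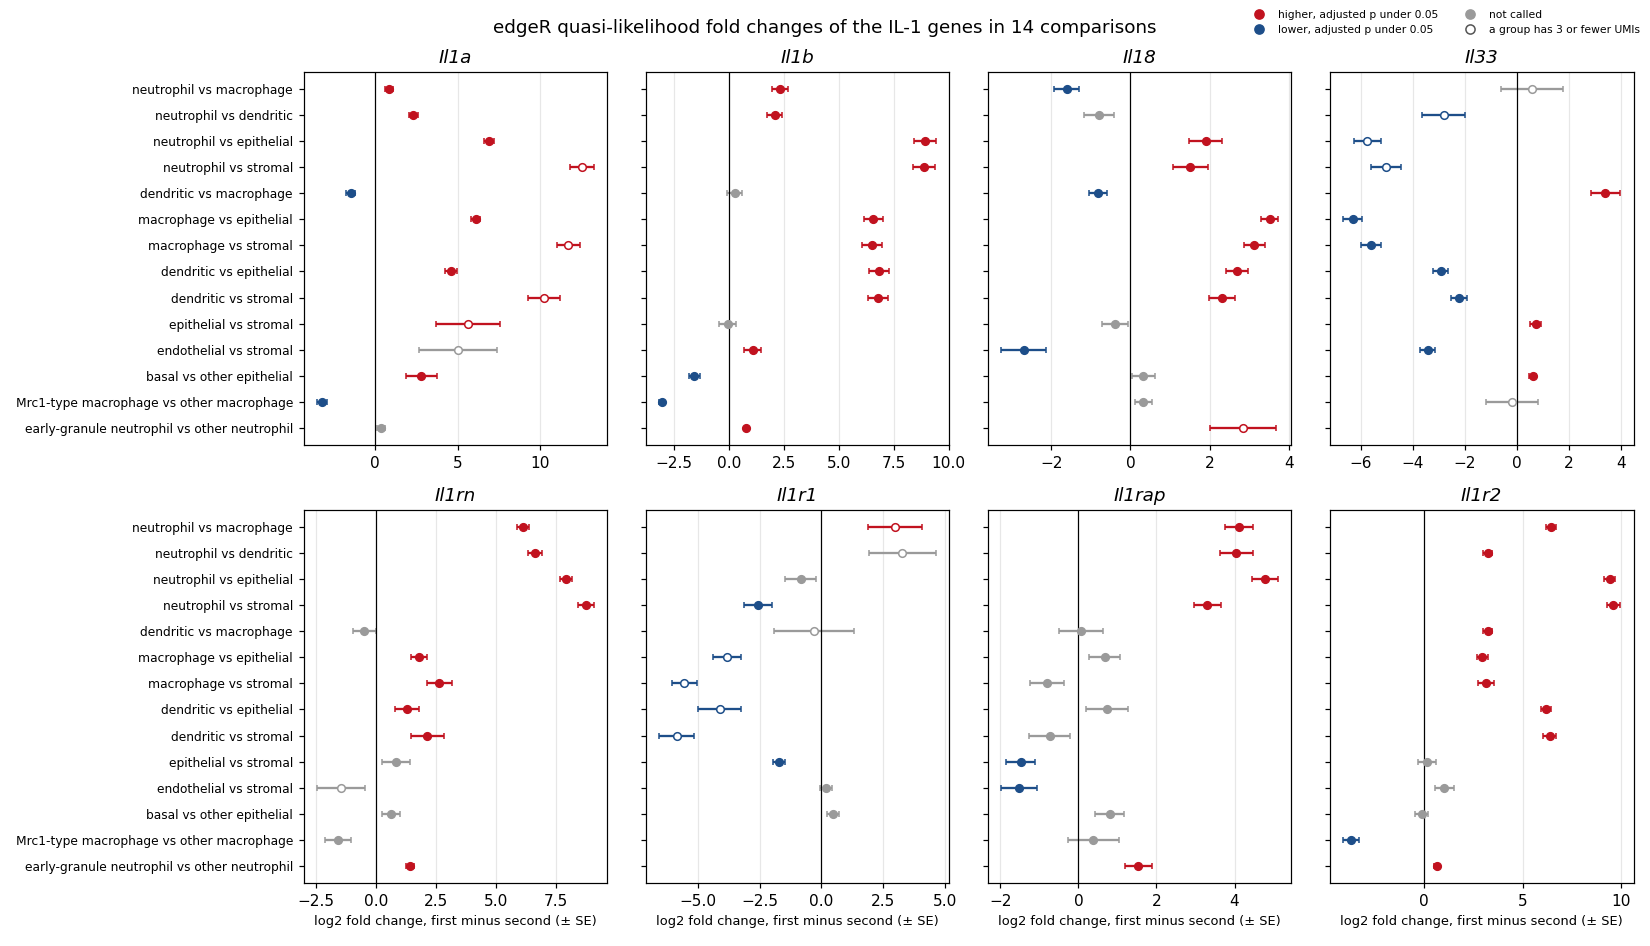
Log2 fold change, first group minus second, with its SE from edgeR's quasi-likelihood test, of each IL-1 gene in 14 comparisons; colours mark the direction of calls, and open circles a group with 3 or fewer UMIs, where the fitted size is no bound. *Il1r2* and *Il1rn* are higher in neutrophil-like cells in all 4 comparisons with other compartments, and *Il33* is lower in macrophage-like than in epithelial-like and stromal-like cells.

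Macrophage-like cells were not uniform. A cluster of 365 cells with *Mrc1*, *Cd163*, *Folr2* and *Pf4*, markers of resident tissue macrophages, was set against the 1280 other macrophage-like cells. *Il1b* read 597 and 587 CPM in Mrc1-type cells and 4048 and 3859 CPM in the others, 6.69-fold lower (-3.05 ± 0.11, adjusted p = 1.88e-12). *Il1a* was 7.57-fold lower (23.6 and 7.41 against 99.6 and 128 CPM, -3.21 ± 0.30, adjusted p = 2.24e-07). *Il1r2* was 10.5-fold lower (3.22 and 2.78 against 27.1 and 36.1 CPM, -3.67 ± 0.41, adjusted p = 2.20e-06). The libraries of the 2 kinds did not overlap for any of these 3 genes, nor for *Il18* and *Il1rn*, which were not called. The share of all genes without overlap was not counted.

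*Il18* did not follow them: 54.8 and 48.2 CPM in Mrc1-type cells and 31.6 and 34.9 CPM in the others (0.32 ± 0.21, adjusted p = 0.371). *Il1rn* had an adjusted p of 0.0532 on 7 and 44 UMIs (-1.59 ± 0.53) and passed under 7 other settings, the library as a block among them (-1.59, adjusted p = 0.0209). Of the 7 members tested 0 were higher and 3 lower, where 14.9% of 11392 genes were called. With scaling by total counts the median of all genes moved from 0.01 to 0.32 and 75.2% of calls were higher, against 46.2%. The other macrophage-like cells included a shallow cluster of 497 cells with a median of 843 UMIs, in which *Il1b* read 570 and 358 CPM, close to the Mrc1-type level, and without this cluster no call of a member changed.

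Neutrophil-like cells were split into 374 cells with the early granule genes *Camp*, *Ngp*, *Chil3* and *Lcn2* raised, and 380 others. Neutrophils make such genes while maturing, but *Ltf* and *Cebpe* of the same list were not raised in the 374 cells. Genes leading these cells, called early-granule here, also included *Retnlg*, *Ly6c2*, *Ifi204*, *Cmpk2*, *Oasl1* and *Gbp2*. Whether the split follows maturation was not tested. *Il1rn* read 753 and 766 CPM in early-granule cells and 388 and 445 CPM in the others, 1.83-fold higher (1.41 ± 0.17, adjusted p = 2.23e-07). *Il1rap* read 101 and 75.6 CPM against 41.5 and 46.5 CPM, 2.02-fold higher (1.54 ± 0.34, adjusted p = 0.00117). *Il18* was 5.33-fold higher on 15 against 3 UMIs, with an exact counting interval of 1.51 to 28.7. Both libraries were higher for *Il1rn* and *Il1rap*, and the *Il18* level of the other cells was 8.89 and 0 CPM.

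Of the 6 members tested 5 were called higher and 0 lower, where 21.9% of 7061 genes were called and 7 of 9 dissociation genes were also higher. The size of all 5 calls depended on scaling: the CPM ratios of *Il1rn*, *Il1rap* and *Il18* above are smaller than their fitted changes. Of the remaining 2 calls 1 was lost with scaling by total counts. *Il1b*, at 20402 and 18477 against 16675 and 15873 CPM, differed by 0.80 ± 0.08 in the fit (adjusted p = 9.93e-09) and by 0.24 with scaling by total counts, where it was still called. *Il1r2*, at 2703 and 2212 against 2211 and 2362 CPM, differed by 0.64 ± 0.13 (adjusted p = 0.000347) and by 0.09 (adjusted p = 0.612) with total counts, and its libraries overlapped. The median of all genes was -0.10 with TMM, the scaling used throughout, and -0.64 with total counts, and 59.4% and 21.6% of calls were higher, against 76.3% with DESeq2. *Il1a*, at 204 and 120 against 187 and 186 CPM, was not called (0.35 ± 0.24, adjusted p = 0.329). With a mitochondrial limit of 10% none of the 5 was called. The subcluster named early-granule there held 239 cells led by *C1qb* and *Lcn2*. All 6 genes of the early-granule list were raised in it, *Ltf* and *Cebpe* included, against 4 in the 374 cells. *Ifi204* and *Oasl1*, which led the 374 cells, led a subcluster of 396 cells there that was not named early-granule.

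Basal-like cells differed from other epithelial-like cells in 3 members, where 30.9% of 14907 genes were called. They included the cluster of 262 cells led by *Krt4* and *Krt6a*, in which 4 basal-cell markers were raised but not *Col17a1*. Whether basal-like cells were stem cells was not tested. *Il33* was higher, as given above, and *Il1b* was lower (13.5 and 19.2 against 48.2 and 31.6 CPM, -1.56 ± 0.24, adjusted p = 0.000573), with 105 of the 186 basal-like *Il1b* UMIs in doublets. *Il1a* was called higher on 34 against 8 UMIs (2.81 ± 0.93, adjusted p = 0.042), 31 of the 34 in library 2, and was -2.46 and not called at a clustering resolution of 0.5. With total counts the median of all genes moved from -0.01 to 0.23, and 67.9% of calls were higher against 46.2%. Neutrophil-like cells carried 6 of 9 gland markers, at 4736 and 3955 CPM, with *Bpifb9a*, *Bpifb9b* and *Dcpp1* at 0. The part of such RNA in the results was not tested.

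**Figure D5:**
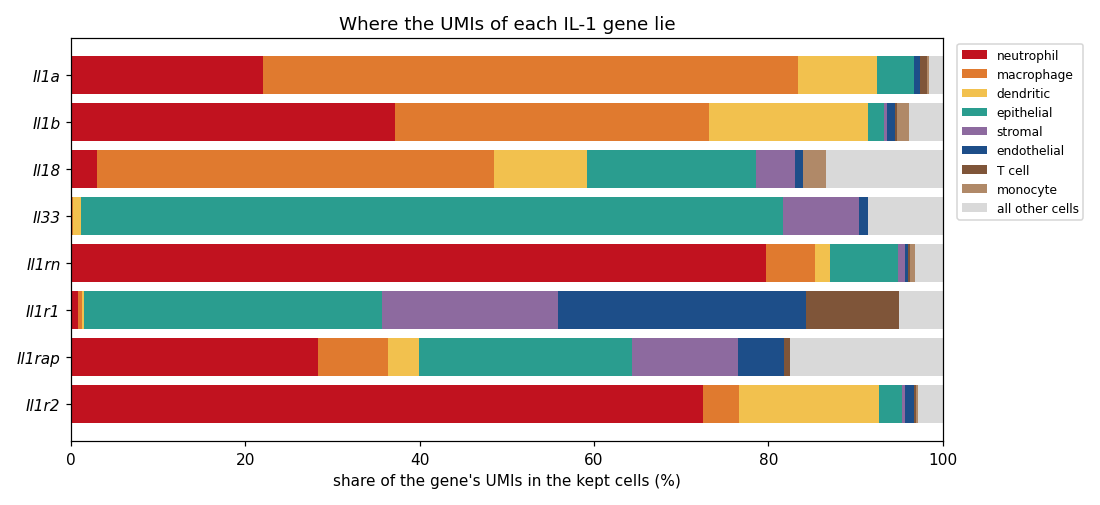
Share of each gene's UMIs, in all 10592 kept cells, that lay in each group of cells. Neutrophil-like, macrophage-like and dendritic-like cells together hold most *Il1a*, *Il1b* and *Il1r2*, epithelial-like cells hold 80.6% of *Il33*, and *Il1r1* is split mainly over epithelial-like (34.3%), endothelial-like (28.5%), stromal-like (20.1%) and T cell-like (10.7%) cells.

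Other genes of the pathway were taken from fixed lists, and from each at most the 4 with most UMIs are named with values. Among 13 other family genes, 8 could be tested, and in neutrophil-like against macrophage-like cells 2 were higher and 1 lower, a share near the 30.5% of all genes called there. *Il18rap*, an IL-18 receptor chain, read 107 and 113 CPM in neutrophil-like and 0.557 and 0.853 CPM in macrophage-like cells (7.02 ± 0.45, adjusted p = 9.18e-12). The second, *Il1f9*, which encodes IL-36γ, is named because the count was small, after its values were seen, and had 63 UMIs in neutrophil-like cells and 1 in macrophage-like cells. *Il18bp*, which binds and neutralises IL-18, was lower (18.6 and 20.3 against 29.5 and 30.1 CPM, -0.84 ± 0.30, adjusted p = 0.0378), a call that total counts did not give. *Sigirr*, a receptor that dampens IL-1 signalling, read 49.5 CPM in endothelial-like cells, 32.4 CPM in mature VSN-like cells and under 12 CPM in the other groups.

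Genes that process IL-1β and IL-18 divided between the myeloid groups. In neutrophil-like against macrophage-like cells 3 of 11 tested were higher and 5 lower, where 30.5% of all genes were called. Their median was 0.15 against -0.23 over all genes, and 5 were higher and 2 lower with total counts. *Nlrp3*, an inflammasome sensor, was higher (596 and 576 against 112 and 113 CPM, 2.16 ± 0.16, adjusted p = 1.54e-10). The adaptor *Pycard* was lower (26.3 and 22.0 against 200 and 200 CPM, -3.26 ± 0.22, adjusted p = 3.61e-11), and so was *Casp1*, the caspase that cleaves both precursors (10.8 and 22.0 against 61.0 and 65.4 CPM, -2.18 ± 0.29, adjusted p = 1.54e-06). Dendritic-like and macrophage-like cells did not differ beyond their spread for *Nlrp3* (-0.04 ± 0.17, adjusted p = 0.975) and *Casp1* (0.04 ± 0.18, adjusted p = 0.978). Against epithelial-like cells, 10 of the 11 were higher in macrophage-like cells and 0 lower, where 50.5% of all genes were called. Their median was 2.62 against -0.15 over all genes.

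Of the 16 genes that carry the signal from the receptor, 5 were higher and 1 lower in neutrophil-like than in macrophage-like cells, a share near the 30.5% over all genes, with a median of 0.36 against -0.23. The adaptor *Myd88* was higher (280 and 230 against 47.6 and 41.2 CPM, 2.30 ± 0.18, adjusted p = 3.47e-10). *Nfkb1*, *Rela* and *Irak1* were not called there, with values of 0.34, 0.44 and 0.05. Of the 18 genes known to respond to IL-1 and NF-κB, 10 were higher and 2 lower. *Cxcl2*, a neutrophil chemoattractant, read 14105 and 14585 against 1133 and 1204 CPM (3.40 ± 0.33, adjusted p = 1.34e-08), and *Nfkbia*, the inhibitor of NF-κB, 3927 and 3921 against 1439 and 1279 CPM (1.31 ± 0.17, adjusted p = 1.19e-06). *Icam1* was higher too (1.77 ± 0.16), and *Nfkbiz* was not called (0.07 ± 0.17, adjusted p = 0.82).

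Many response genes are also induced by tissue dissociation, so a list of 9 dissociation genes was read beside them. It summed to 10889 and 11224 CPM in neutrophil-like, 14501 and 15593 CPM in macrophage-like, 22874 and 23108 CPM in epithelial-like and 1564 and 1692 CPM in mature VSN-like cells. Neutrophil-like cells were higher than macrophage-like cells in 1 of the 9 and lower in 7, where 30.5% of all genes were called. In Mrc1-type against other macrophage-like cells 14.9% of all genes were called. There 7 of 14 response genes were lower, among them *Cxcl2* (-0.72 ± 0.12, adjusted p = 0.00019) and *Nfkbia* (-0.57 ± 0.12, adjusted p = 0.0021), 2 were higher, and 5 of the 9 dissociation genes were lower. With total counts 2 response genes were lower and 3 dissociation genes. In basal-like against other epithelial-like cells 10 of 16 response genes were higher and 3 lower, where 30.9% of all genes were called, and 12 were higher and 0 lower with total counts. All 9 dissociation genes were higher under both scalings. *Icam1* read 276 and 287 against 62.4 and 68.0 CPM in these cells (1.87 ± 0.11, adjusted p = 7.93e-07). In early-granule against other neutrophil-like cells 21.9% of all genes were called. There 7 of 12 response genes and 7 of 9 dissociation genes were higher and 0 lower. With total counts 2 response genes were higher and 1 lower, and 3 dissociation genes were higher. The part of dissociation in these values and in those of the members was not tested.

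For each member the 3 genes with the most similar pattern were found by Pearson's correlation of log2(CPM + 10) over the 18 named classes, among 10922 genes. The classes share libraries and differ in depth, so the values are descriptions. *Il1rn* resembled the granule genes *Ngp* (0.984) and *Camp* and the macrophage and neutrophil gene *Acod1*. *Il1b* resembled *Cd300c2* (0.957), *Ccrl2* and *Slc15a3*, and *Il1r2* resembled *Ccr1* (0.946), *Cd300lf* and *1600010M07Rik*. *Il1a* resembled *Cd33* (0.960), *Siglece* and *Ltc4s*, and *Il18* resembled *Tmem219* (0.925), *Sirpa* and *Clec12a*. *Il33* resembled *Hspb8* (0.954), *Boc* and *Egfr*. *Il1rap* resembled *G0s2* (0.902), *Cpeb2* and *Selenon*. *Il1r1* had no gene above 0.804, its closest being *Tmem64*, *Gata3* and *Hlf*.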

How the data were processed

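Whole VNO of wild-type males at P60 was captured as 2 droplet-based libraries. The authors made UMI counts per gene and barcode with Cell Ranger 4 on mm10, merged both libraries with aggr and deposited the raw counts, with no normalization. Whether aggr evened out depth is not stated. Libraries were taken from the number after the dash of each barcode, and held 108005626 and 95442231 UMIs. Members and gene lists were chosen with earlier results of these data known.

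Cells with 200 to 9000 genes and at most 5% mitochondrial UMIs, and genes in at least 3 cells, were kept. Clusters (Seurat 5.3.0 in R 4.3.3, 1982 variable genes after leaving out 18 IL-1 genes) were named where at least 3 markers were raised 4-fold. Further naming rules were set after the clusters had been seen. An epithelial cluster with *Fezf2* and *Cyp2a5* raised was called *Fezf2*+ epithelium. Mature VSN clusters without a listed marker among their leading genes stayed unnamed. This left out a cluster of 305 cells with 4 mature VSN markers raised, so mature VSN-like cells were 1 cluster of 592 cells. Doublets (1.19% and 2.12% of cells) were called with Scrublet in scanpy 1.11.5, against an expected rate of 8%, and kept in the main values. Values without doublets may therefore still hold some. UMIs were summed per library and group, and genes with at least 10 UMIs were tested with edgeR 4.0.16 (TMM, quasi-likelihood test, Benjamini-Hochberg, threshold 0.05). The 6 compartments shared 1 fit, and subdivisions of a compartment were fitted alone, each group with 2 libraries. Intervals of shares and ratios are exact 95% intervals, and a count of 0 was given a floor of 3 UMIs. The fit was tested on simulated data. Genes named are the 8 members, at most 4 genes per list with the most UMIs, and the 3 genes most alike to each member. Promoters came from RefSeq on GRCm38.p6, in which all 8 members matched, and positions from GENCODE vM21. Overlapping genes on opposite strands are separated only as far as the authors' counting used strand.

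Same-numbered sums come from the same library, which pairs them, and their deviations from the group means correlated at 0.0689 to 0.322 over 15 pairs of groups. The 2 libraries differed beyond sampling noise in every group (chi-square per degree of freedom 3.17 to 12.9). Alternatives were DESeq2 1.42.0, other filters, the library as a block, a mitochondrial limit of 10%, no doublets, another resolution, IL-1 genes kept in the clustering, thinned cells, the 2 groups alone and leaving out a library. A further 3 were added after seeing the data: scaling by total counts, leaving out the shallow macrophage-like cluster, and levels without doublets.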

Additional observations from a re-analysis of the deposited data

How the results depend on the processing

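Over 12 other settings with a test, 1126 of 1196 values of single members kept their side of the threshold, 39 lost the call, 22 gained one and 9 reversed. A change of sign counted as a reversal only where the main fit or the setting gave a call. Values not called in either may have changed sign within the 1126. Of 156 counts of members called, 149 stayed within 1.5 times. Dendritic-like against macrophage-like cells gave 2 calls without doublets, against 4. Epithelial-like against stromal-like cells gave 4 calls, but 7 with a mitochondrial limit of 10%, where no cluster was named non-sensory or *Fezf2*+ epithelium, 1 with thinned cells and 2 with scaling by total counts. With thinned cells, endothelial-like against stromal-like cells gave 1 call against 4, and basal-like against other epithelial-like cells 1 against 3. Early-granule against other neutrophil-like cells gave 0 with the limit of 10%, against 5. Reversed values were *Il33* between neutrophil-like and dendritic-like cells without doublets (0.41), *Il1b* between epithelial-like and stromal-like cells without doublets (1.29), *Il1a*, *Il1rn* and *Il1r2* between the same groups with the limit of 10% (-2.82, -1.31 and -1.59), *Il1a* between basal-like and other epithelial-like cells at a resolution of 0.5 (-2.46), and *Il1b*, *Il18* and *Il1r2* between the neutrophil-like kinds with the limit of 10% (-0.14, -1.34 and -0.061). What caused these reversals was not tested. The replicate block by library added 4 calls of members, *Il1b* between dendritic-like and macrophage-like cells (0.25), *Il1a* and *Il1r2* between endothelial-like and stromal-like cells (5.02 and 1.06) and *Il1rn* between the macrophage-like kinds (-1.59), and changed no other. Leaving out 1 library left no spread for a test, and 5 of 213 such values were marked as moved. *Il33* between neutrophil-like and dendritic-like cells was among them, but stayed at -2.82 without library 1 and without library 2. The others were *Il1a* in basal-like cells (4.08 without library 1), *Il1rap* in Mrc1-type cells and *Il18* in early-granule cells. There 1 library held under 10 UMIs and gave no value, so no spread between libraries could be set. Depth limits *Il1r1* in myeloid cells, *Il18* in neutrophil-like cells and *Il1rap* outside neutrophil-like cells.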
